A study of Mus musculus with 2 samples.

Results

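IL-4 and IL-13 are cytokines of type 2 immunity. They were followed here through 5 genes: the cytokines Il4 and Il13, the receptor chains Il4ra and Il13ra1, and the transcription factor Stat6. The 5 genes were taken by symbol from the 31253 genes that the files list, of which 20826 had a UMI (a counted RNA molecule) in a kept cell. They were chosen because earlier results of these data showed which cell types carried them. Their levels by cell type are therefore a description.

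The cells were CD45+ cells from GL261 gliomas, tumours that grow from a mouse glioma line injected into the brain, here in C57BL/6 mice. The ibudilast library is from mice that received ibudilast, an inhibitor of phosphodiesterases and of the cytokine MIF, into the stomach at 20 mg/kg, 5 times a week for 2 weeks. The PBS library is from mice that received PBS on the same schedule, and its treatment label reads untreated. Both groups carried the tumour, and neither the number of mice behind a library nor any pooling is given in the sources used here. Since each group is 1 library, no test was made, and every ratio sets 1 library against the other, not 1 treatment against the other.

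In type 2 immunity, basophils, mast cells and some T cells release IL-4 and IL-13. IL-4 binds a receptor made of IL-4Rα and the common γ chain (Il2rg), or one made of IL-4Rα and IL-13Rα1, and IL-13 binds the receptor with IL-13Rα1. Janus kinases on these chains phosphorylate STAT6, which enters the nucleus. In mouse macrophages this pathway is known for switching on genes such as Arg1, Mrc1, Chil3 and the chemokine genes Ccl17 and Ccl24.

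Il4 and Il13 lie beside each other on the minus strand of chromosome 11 (GRCm38), Il4 at chr11:53602982-53618669 and Il13 at chr11:53631324-53634702, with 12654 bases between them. The sequences before their starts are shown because the cytokines share a locus and were found in the same kinds of cells. Each is the 250 bases before a RefSeq start (GRCm38.p6), on the minus strand: chr11:53618666-53618915 for Il4, 1 of its 2 RefSeq starts, and chr11:53634703-53634952 for Il13. Capitals mark the letters TTCNNNNGAA, the spacing that STAT6 is known to prefer, or a GATA word.
Il4: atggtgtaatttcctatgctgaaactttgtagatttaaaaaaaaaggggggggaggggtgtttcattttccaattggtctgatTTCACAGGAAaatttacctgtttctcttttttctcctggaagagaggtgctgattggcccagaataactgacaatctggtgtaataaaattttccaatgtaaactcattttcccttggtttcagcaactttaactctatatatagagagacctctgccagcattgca
Il13: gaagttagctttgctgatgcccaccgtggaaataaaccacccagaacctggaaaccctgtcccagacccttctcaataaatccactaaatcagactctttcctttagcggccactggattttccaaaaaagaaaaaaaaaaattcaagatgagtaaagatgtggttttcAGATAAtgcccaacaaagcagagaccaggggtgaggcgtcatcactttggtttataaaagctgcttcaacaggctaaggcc
The Il4 window held the STAT6 word TTCACAGGAA and no GATA word, and the Il13 window held the GATA word AGATAA and no STAT6 word. Of the 5 windows of these genes, 1 held the STAT6 letters. Over all 32817 RefSeq windows of this length, 5.85% held TTCNNNNGAA, which reads alike on both strands, and 26.6% held a GATA word on either strand (AGATAA or AGATAG, or the same with T as the first letter). A match describes letters only. The receptor genes lie at chr7:125552120-125579474 (Il4ra) and chrX:36112110-36171259 (Il13ra1), and Stat6 at chr10:127642986-127660957, all on the plus strand.

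The ibudilast library held 8483 barcodes and 82196922 UMIs, against 8968 barcodes and 119113794 UMIs in the PBS library. After filtering, 6654 ibudilast cells with a median of 7857 UMIs and 7666 PBS cells with a median of 11660 UMIs were kept, and 19 barcodes occurred in both libraries. Cells were assigned to types by UMIs of marker genes that exclude the 5 genes described. In 48 of 53 checks, a marker not used to assign its own type was at least 1.5 times as high there as on average in the others. Gata2, Cpa3 and Hdc were each checked for more than 1 type, and Ms4a2 and Siglech served to assign another type. The labels call the cells tumour-infiltrating lymphocytes. The most frequent type was nevertheless the macrophage, with 2326 ibudilast cells against 3795 PBS cells, and T cells without macrophage RNA numbered 966 in the ibudilast library and 740 in the PBS library. A further 707 ibudilast and 649 PBS cells carried T cell receptor genes and at least 1% of UMIs on macrophage markers. They are named T cells with macrophage RNA and given apart, since a droplet that held a T cell and a macrophage cannot be told apart from a T cell that took up such RNA.

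Most Il4 of the PBS library lay in basophils, granulocytes that carry IgE receptors, and this type was nearly missing from the ibudilast library. Basophil markers picked out 1 of 6654 ibudilast cells (0.0150%) and 23 of 7666 PBS cells (0.300%). The ratio of these shares was 0.0501 (95% interval 0.00122 to 0.308). All intervals here cover counting error only, and they leave out the spread between mice. The count stayed at 1 to 3 ibudilast cells and 20 to 24 PBS cells under a stricter cell filter, with doublets kept, under a stricter gate, with thinned counts and by clustering. A share of sorted cells can change with any other cell type, so fewer basophils and more of other cells cannot be told apart.

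The 23 PBS cells carried basophil genes, of which Cyp11a1, Cd200r3 and Mcpt8 also served to assign them. Hdc, which makes histamine, was found in 21 of them, the cytochrome gene Cyp11a1 in 20, the receptor gene Cd200r3 in 18, the transcription factor gene Gata2 in 16 and the basophil protease gene Mcpt8 in 15. Of genes that mark mast cells, Tpsab1 and Cma1 were found in 0, Mcpt4, Tpsb2 and Kit in 2 each and Cpa3 in 4 of these 23 cells. Of T cell genes, Cd3e was found in 0 and Trac in 1. The assignment itself required fewer than 3 UMIs summed over Tpsab1, Cma1, Mcpt4, Tpsb2 and Kit and fewer than 5 of T cell genes. Low counts of these genes were thus fixed in advance, while Hdc, Gata2 and Cpa3 were free to vary. Of 6 basophil markers not used for the assignment, Gata2, Hdc, Csf1 and Hgf were at least 1.5 times as high as on average in other types, while Cpa3 and Fcer1a did not and were higher in mast cells. The 1 ibudilast cell carried 4 Mcpt8, 4 Cd200r3, 1 Cyp11a1, 19 Hdc and 2 Gata2 UMIs.

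Il4, the gene for IL-4, had 1 UMI in the 1 ibudilast basophil and 147 UMIs in 16 of the 23 PBS basophils. Among the PBS basophils, 3 cells held 50, 41 and 29 UMIs, 4 held 9, 4, 3 and 2 UMIs, 9 held 1 UMI and 7 held none. Il4 was thus uneven among these cells, and basophils together held 70.7% of all Il4 UMIs of the PBS library against 1.67% in the ibudilast library. Il4 reached 2129 CPM (counts per 1e6 UMIs of the type, 95% interval 1799 to 2502) in PBS basophils at a median depth of 3140 UMIs per cell, too shallow for a share of cells with none to mean absence. As a measure of free RNA, Il4 was found in 2 of 3823 ibudilast cells (0.0523%) and 4 of 5479 PBS cells (0.0730%) of types that should lack it (B cells, dendritic cells, monocytes, macrophages and microglia), at median depths of 7810 UMIs in ibudilast cells and 12200 UMIs in PBS cells. The 69.6% of PBS basophils with Il4 lay far above that share.

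**Figure D1:**
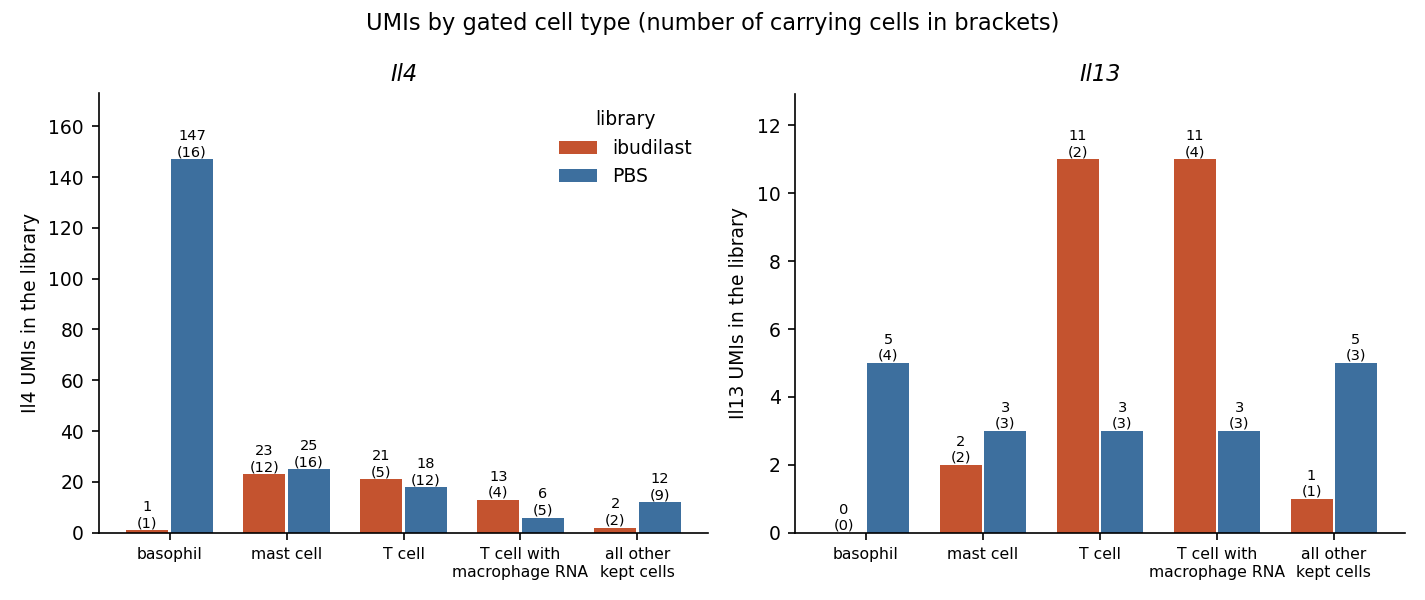
UMIs of Il4 (left) and Il13 (right) summed over the cells of each gated type, with ibudilast and PBS bars side by side and the number of carrying cells in brackets above each bar. Basophils held 1 Il4 UMI in the ibudilast library and 147 in the PBS library, while mast cells held 23 in the ibudilast and 25 in the PBS library.

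Mast cells, tissue cells filled with histamine and proteases, were the next carriers and were present in both libraries. They numbered 36 in the ibudilast library and 55 in the PBS library, with a ratio of shares of 0.754 (95% interval 0.481 to 1.17). Il4 had 23 UMIs in 12 of the ibudilast mast cells (92.2 CPM) and 25 UMIs in 16 of the PBS mast cells (75.7 CPM), and no cell held more than 4. The ratio of the CPM was 1.22 (95% interval 0.661 to 2.24), an interval that holds 1. Il4 was found in 33.3% of ibudilast mast cells at a median depth of 5244.5 UMIs and in 29.1% of PBS mast cells at 5985 UMIs.

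Basophils and mast cells share markers, so mast cells were split by the basophil protease Mcpt8. Mast cells without Mcpt8 held 17 Il4 UMIs in 9 of 31 ibudilast cells (80.9 CPM) and 24 in 15 of 51 PBS cells (83.2 CPM). Mast cells with Mcpt8 held 6 Il4 UMIs in 3 of 5 ibudilast cells and 1 in 1 of 4 PBS cells. The level in mast cells without Mcpt8 was thus nearly the same in both libraries. Il1rl1, which encodes the receptor for the alarmin IL-33 and marks mast cells and many type 2 cells, was found in 28 of 36 ibudilast and 50 of 55 PBS mast cells, and in 0 of 1 ibudilast and 10 of 23 PBS basophils.

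Il4 in T cells was rare in both libraries and rested on a few cells. T cells without macrophage RNA held 21 UMIs in 5 of 966 ibudilast cells and 18 UMIs in 12 of 740 PBS cells. Their CPM of 2.21 in ibudilast cells against 2.35 in PBS cells gave a ratio of 0.939 (95% interval 0.476 to 1.87). T cells with macrophage RNA held 13 UMIs in 4 ibudilast cells and 6 UMIs in 5 PBS cells. Over all T cells the ratio was 1.23 (95% interval 0.709 to 2.17), so that no difference was detectable at this depth.

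The T cell carriers differed in how many UMIs 1 cell held. A single conventional CD4 T cell of the ibudilast library carried 16 Il4 UMIs together with 10 Il13 UMIs, and also 21 UMIs of Csf2 and 11 of Il21, further T cell cytokines. Il21 was looked at after its values were seen. A T cell with macrophage RNA from the same library carried 10 Il4 and 5 Il13 UMIs with 3 UMIs of Foxp3, the regulatory T cell factor. The highest T cell of the PBS library held 4 Il4 UMIs and no Il13. Among T cells without macrophage RNA, the ibudilast library held 2 Il4 UMIs in CD8, 17 in conventional CD4 and 2 in other T cells, and the PBS library 2 in CD8, 6 in conventional CD4 and 10 in other T cells. Regulatory and γδ T cells held none in either library.

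Gata3, the transcription factor gene of type 2 T cells, stood at 54.1 CPM in the T cells of the ibudilast library and 54.0 CPM in those of the PBS library, and the 95% interval of the ratio was 0.878 to 1.14. It was found in 35.7% of ibudilast and 34.3% of PBS T cells and in no basophil or mast cell. Among the cells with Il4 or Il13, 3 of 5 ibudilast and 6 of 15 PBS T cells had a Gata3 UMI. Zbtb16, a marker of natural killer T cells, was found in 1 of these 5 ibudilast and 4 of these 15 PBS cells. Its share was 1.97% of all ibudilast and 1.89% of all PBS T cells, and it was chosen after its values were seen. In each library, 1 of these carriers had Gata3 and Il1rl1 UMIs but no Trac or Cd3e UMI. The identity of the carriers was not tested.

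Il13, the gene for IL-13, was found in few cells of either library. All kept cells held 25 UMIs in 9 ibudilast cells and 19 UMIs in 16 PBS cells. Basophils held none in the ibudilast library and 5 UMIs in 4 of 23 PBS cells, of which 3 also carried Il4. Mast cells held 2 UMIs in 2 ibudilast cells and 3 UMIs in 3 PBS cells, 1 of which carried Il4 too. No type other than the T cells reached 6 UMIs in either library.

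All T cells together held 22 Il13 UMIs in 6 of 1673 ibudilast cells and 6 UMIs in 6 of 1389 PBS cells. The ratio of 3.19 (95% interval 1.254 to 9.61) therefore came with equal numbers of carrying cells. The 3 highest cells held 72.0% of the Il13 UMIs of the ibudilast library and 31.6% of those of the PBS library. Without the 3 highest cells of each library, the ratio over all kept cells was 0.802, against 1.96 with them, so the direction rests on those cells.

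Il4 over all kept cells followed the basophils. Its level was 0.853 CPM in the ibudilast library and 1.99 CPM in the PBS library, a ratio of 0.429 (95% interval 0.316 to 0.574). Leaving out the basophils turned this ratio to 1.44, for which no interval was made. This value rests in large part on 2 ibudilast T cells, which held 16 and 10 Il4 UMIs. The 3 highest cells held 30 of 60 Il4 UMIs in the ibudilast library and 120 of 208 in the PBS library.

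**Figure D2:**
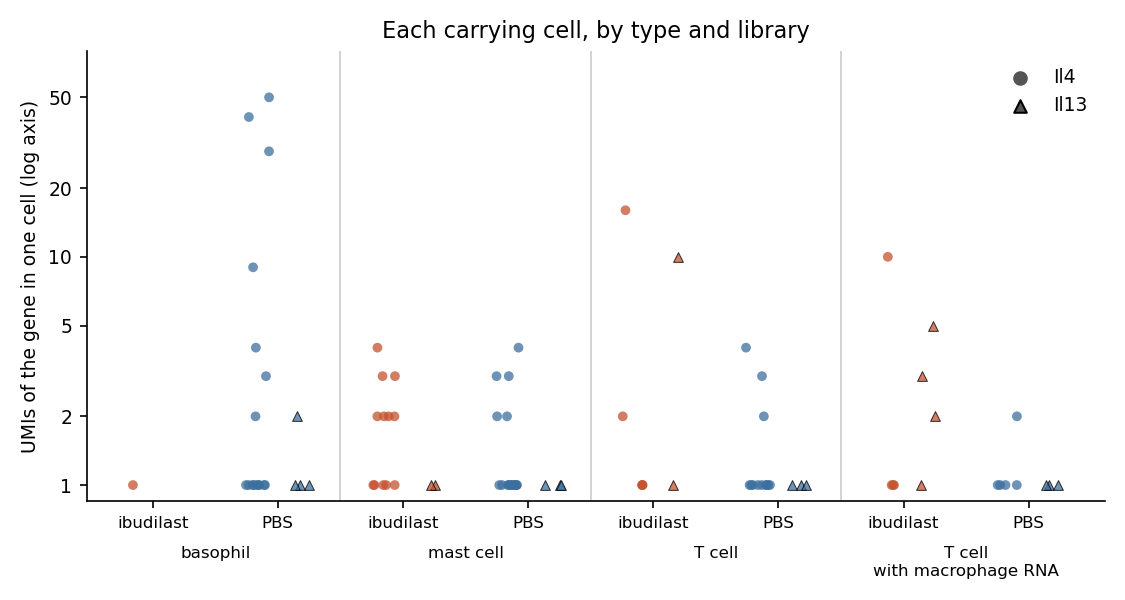
UMIs of Il4 and of Il13 in each cell that carried at least 1, on a log axis, by type and library. Most carriers held 1 UMI, 3 PBS basophils held 29 to 50 Il4 UMIs, and the highest T cells, with 16 and 10 Il4 UMIs, were in the ibudilast library.

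By level, Il4 ran from PBS basophils through mast cells to T cells, apart from 1 UMI in 33 PBS neutrophils (8.25 CPM, 95% interval 0.209 to 46.0), whose interval overlapped that of T cells. Mast cells stood above the next type beyond their intervals in both libraries. T cells and T cells with macrophage RNA overlapped in the ibudilast library and did not in the PBS library. Monocytes, NK cells, B cells and all dendritic cells had no Il4 UMI in either library. For the largest of these sets, the 814 ibudilast and 618 PBS monocytes, a count of 0 allows up to 0.507 CPM in the ibudilast library and 0.626 CPM in the PBS library. For Il13 the only neighbours in the order apart beyond their intervals were ibudilast T cells with macrophage RNA and ibudilast macrophages.

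Other type 2 cytokines were nearly missing. Over all kept cells, Il5 had 1 UMI in the ibudilast library and none in the PBS library, Il31 had none in the ibudilast library and 1 in the PBS library, and Il3 had 1 in the ibudilast library and none in the PBS library. Il9 had no UMI in either. Csf2 was the exception in T cells, with 23.2 CPM in ibudilast cells and 26.6 CPM in PBS cells and a ratio of 0.872 (95% interval 0.717 to 1.06).

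The receptor chain Il4ra, shared by both receptors, was found in all immune types with at least 20 cells, and its level differed little between the libraries. Myeloid cells stood highest. Monocytes had 101.2 CPM in the ibudilast library against 115.8 CPM in the PBS library, and ibudilast macrophages 93.1 CPM against 101.1 CPM in PBS macrophages. Both were slightly lower in the ibudilast library, with ratios of 0.874 (95% interval 0.777 to 0.983) in monocytes and 0.921 (95% interval 0.875 to 0.970) in macrophages, though the macrophage ratio was 0.999 with thinned counts. These levels are summed over all UMIs of a type and are not set between genes, since counts from transcript ends are not per length.

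Dendritic cells take up antigen and show it to T cells, and they carried Il4ra at similar levels. Type 2 conventional dendritic cells (cDC2) had 86.8 CPM in ibudilast cells and 85.2 CPM in PBS cells, a ratio of 1.02 (95% interval 0.844 to 1.23). Migratory dendritic cells had 96.0 CPM in the ibudilast library and 81.0 CPM in the PBS library, a ratio of 1.18 (95% interval 0.956 to 1.47). The cDC1, which serve CD8 T cells, were lower, at 56.2 CPM in ibudilast and 50.7 CPM in PBS cells. Mast cells had 72.2 CPM in the ibudilast library and 78.7 CPM in the PBS library.

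T cells carried less Il4ra than myeloid cells. Those without macrophage RNA had 33.0 CPM in the ibudilast library against 38.7 CPM in the PBS library, a ratio of 0.853 with a 95% interval of 0.726 to 1.004. T cells with macrophage RNA had 77.2 CPM in the ibudilast library against 85.8 CPM in the PBS library. Regulatory T cells had the highest level of the T cell subsets, 65.9 CPM in ibudilast and 52.1 CPM in PBS cells, and CD8 T cells had 26.3 CPM in ibudilast and 29.8 CPM in PBS cells. The PBS basophils held only 2 Il4ra UMIs (29.0 CPM, 95% interval 3.51 to 105), which leaves their place in this order undetermined at that depth.

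Ordered by level, Il4ra neighbours mostly overlapped. The order opened with neutrophils (149 CPM), microglia (115 CPM) and monocytes in the ibudilast library and with monocytes, neutrophils (107 CPM) and microglia (103 CPM) in the PBS library. It ended with T cells, NK cells and oligodendrocytes in both. The only neighbours apart beyond their intervals were NK cells and oligodendrocytes in the ibudilast library, and macrophages and T cells with macrophage RNA in the PBS library.

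Il13ra1, the chain that completes the receptor for both cytokines, was far more restricted. Monocytes had 75.4 CPM in the ibudilast library and 79.7 CPM in the PBS library, a ratio of 0.945 (95% interval 0.823 to 1.09). The cDC2 had 49.6 CPM in ibudilast cells and 43.3 CPM in PBS cells (ratio 1.15, 95% interval 0.886 to 1.48). Macrophages had 33.5 CPM in the ibudilast library and 34.9 CPM in the PBS library (ratio 0.958, 95% interval 0.878 to 1.04). All 3 intervals hold 1.

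Il13ra1 was low in T cells and could not be placed in basophils. T cells without macrophage RNA had 6.105 CPM in ibudilast cells and 5.10 CPM in PBS cells. Mast cells had 2 UMIs in 1 ibudilast cell and none in the 55 PBS cells, where a count of 0 allows up to 9.08 CPM. PBS basophils had none either, which allows up to 43.4 CPM, a limit above the macrophage level. B cells had 10.9 CPM from 4 ibudilast UMIs and 26.0 CPM from 8 PBS UMIs, the PBS interval overlapping that of macrophages. Migratory dendritic cells were the only type of at least 100 cells in each library in which the interval of the ratio left out 1, with 25.8 CPM in ibudilast cells and 15.9 CPM in PBS cells and a ratio of 1.62 (95% interval 1.02 to 2.62), from 53 ibudilast and 31 PBS UMIs.

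The order of Il13ra1 put monocytes and neutrophils first in both libraries. Neutrophils had 71.0 CPM from 10 ibudilast UMIs and 132 CPM from 16 PBS UMIs, and these intervals overlapped those of monocytes. Breaks beyond the intervals came between cDC2 and macrophages in the ibudilast library and between monocytes and cDC2 in the PBS library. All other neighbours overlapped.

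Stat6, the transcription factor that both receptors activate, was found in all immune types with at least 20 cells. It ran from 21.9 CPM in cDC1 to 92.4 CPM in neutrophils (13 UMIs) in the ibudilast library. In the PBS library it ran from 18.2 CPM in mast cells to 99.0 CPM in neutrophils (12 UMIs). Macrophages had 44.0 CPM in the ibudilast library and 44.6 CPM in the PBS library, a ratio of 0.987 (95% interval 0.915 to 1.06). T cells had 38.9 CPM in ibudilast and 37.8 CPM in PBS cells, and NK cells had 43.5 CPM in ibudilast and 45.0 CPM in PBS cells. The cDC1 had 21.9 CPM in ibudilast cells and 25.4 CPM in PBS cells, and mast cells had 32.1 CPM from 8 ibudilast UMIs and 18.2 CPM from 6 PBS UMIs.

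Monocytes were the only type in which the interval of the Stat6 ratio left out 1. Their level was 48.0 CPM in the ibudilast library against 60.5 CPM in the PBS library, a ratio of 0.793 (95% interval 0.671 to 0.937). Migratory dendritic cells had 54.1 CPM in the ibudilast library against 66.1 CPM in the PBS library, with an interval of the ratio from 0.628 to 1.06. In the order, neutrophils and migratory dendritic cells stood first in both libraries, and only cDC1 against oligodendrocytes (ibudilast) and monocytes against T cells with macrophage RNA (PBS) were apart beyond their intervals.

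**Figure D3:**
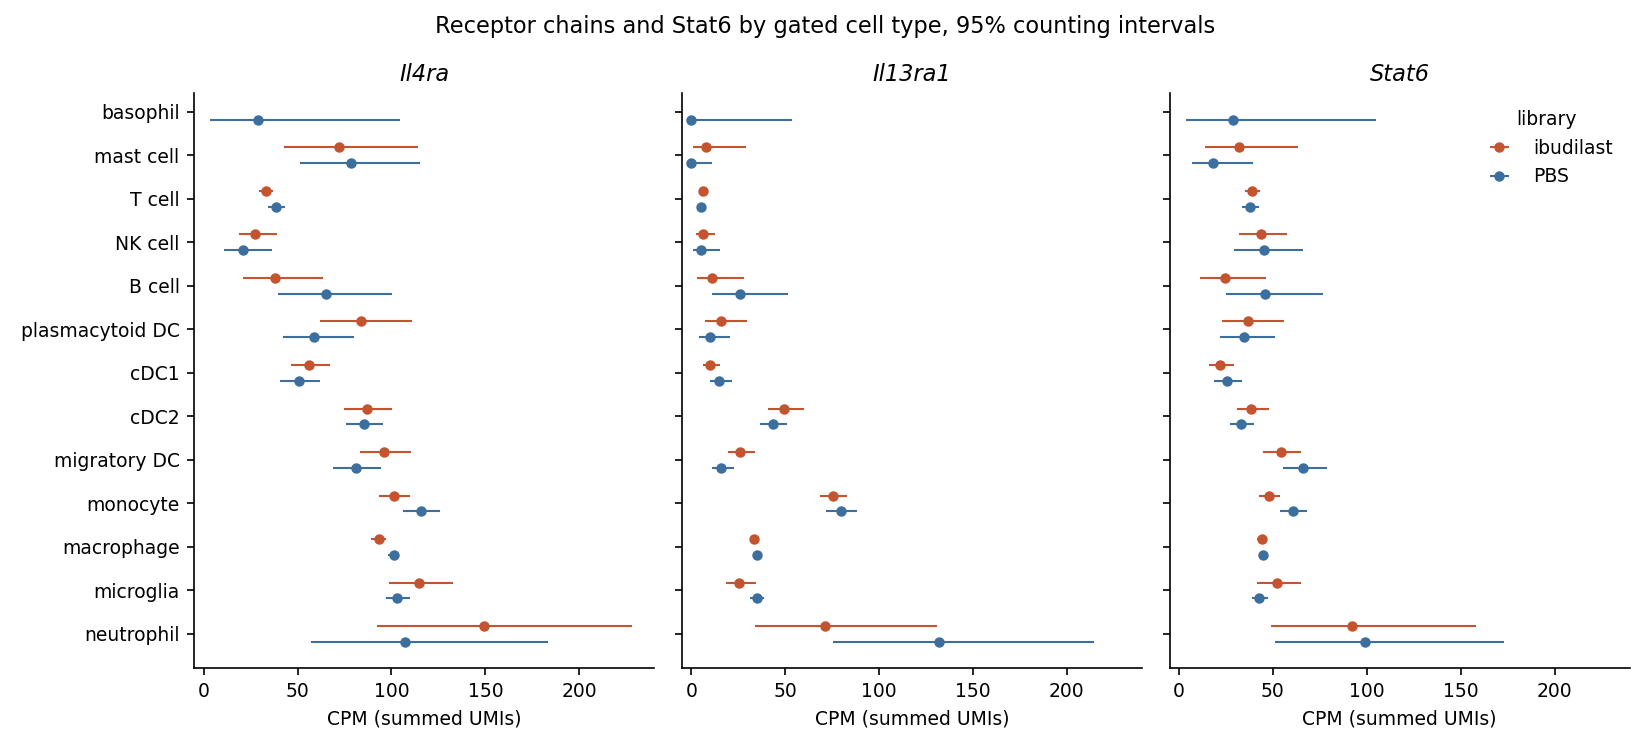
CPM of Il4ra, Il13ra1 and Stat6 (3 panels, horizontal axis) in each gated type (rows), with 95% Poisson intervals, ibudilast above PBS in each row. Il13ra1 stands out in monocytes, neutrophils and cDC2, while Stat6 intervals of most types overlap.

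Shares of cells with a UMI differed more than levels. Among macrophages, Il4ra was found in 48.6% of ibudilast and 63.2% of PBS cells, Il13ra1 in 23.0% of ibudilast and 33.6% of PBS cells, and Stat6 in 31.4% of ibudilast and 42.3% of PBS cells. The median depth was 7740 UMIs in ibudilast and 12822 UMIs in PBS macrophages. With each cell thinned to 1000 UMIs, the shares were 10.6% in both libraries for Il4ra, 3.02% in ibudilast and 3.24% in PBS cells for Il13ra1, and 3.87% in ibudilast and 4.71% in PBS cells for Stat6. In oligodendrocytes, which are no immune cells, Il4ra stood at 6.44 CPM in the ibudilast library and 8.15 CPM in the PBS library, a measure of free RNA.

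Both chains of the receptor for IL-13 were seen in the same cell most often in microglia, with 37.0% of ibudilast cells at a median depth of 20289 UMIs and 39.8% of PBS cells at 19435 UMIs. Il4ra and Il13ra1 occurred together in 28.3% of ibudilast and 30.1% of PBS cDC2, in 17.9% of ibudilast and 23.8% of PBS monocytes and in 14.1% of ibudilast and 24.1% of PBS macrophages. In T cells without macrophage RNA they occurred together in 3.00% of ibudilast and 2.43% of PBS cells, and in T cells with macrophage RNA in 25.7% of ibudilast and 28.0% of PBS cells. Il4ra and Il2rg, the chains of the receptor for IL-4 alone, were found together in 19.2% of ibudilast and 23.6% of PBS T cells. This pair was more frequent in microglia (64.4% of ibudilast and 63.8% of PBS cells) and cDC2 (53.6% and 53.5%). It was found in 29.7% of ibudilast and 43.5% of PBS macrophages, and in 9.05% of ibudilast and 8.43% of PBS NK cells. All of these shares move with depth, and PBS macrophages were the deeper ones.

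Monocytes and macrophages were parted at 1% of UMIs on macrophage markers, and 256 of 3140 ibudilast and 226 of 4413 PBS cells lay between 0.8% and 1.2%. The 3 genes were therefore also followed along that percentage in 8 steps. Il13ra1 ran between 63.4 and 92.1 CPM in the 4 ibudilast monocyte steps and between 75.4 and 90.1 CPM in the 4 PBS ones. It ran between 28.7 and 46.7 CPM in the ibudilast macrophage steps and between 33.6 and 41.9 CPM in the PBS ones. The CPM ranges of the monocyte and macrophage steps did not overlap in either library. The intervals of the lowest ibudilast monocyte step (49.3 to 80.4) and the highest ibudilast macrophage step (40.6 to 53.5) did overlap.

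Il4ra and Stat6 changed less along these steps. Il4ra ranged from 84.4 to 106 CPM over the 8 ibudilast steps and from 90.8 to 139 CPM over the 8 PBS steps. Stat6 ranged from 37.96 to 57.1 CPM over the ibudilast steps and from 42.7 to 66.3 CPM over the PBS steps. The ranges of macrophage and monocyte steps overlapped for Il4ra in both libraries and for Stat6 in the ibudilast library. For Stat6, every PBS monocyte step stood above every PBS macrophage step by CPM. The intervals of the lowest PBS monocyte step (31.1 to 76.7) and the highest PBS macrophage step (43.0 to 54.1) overlapped.

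**Figure D4:**
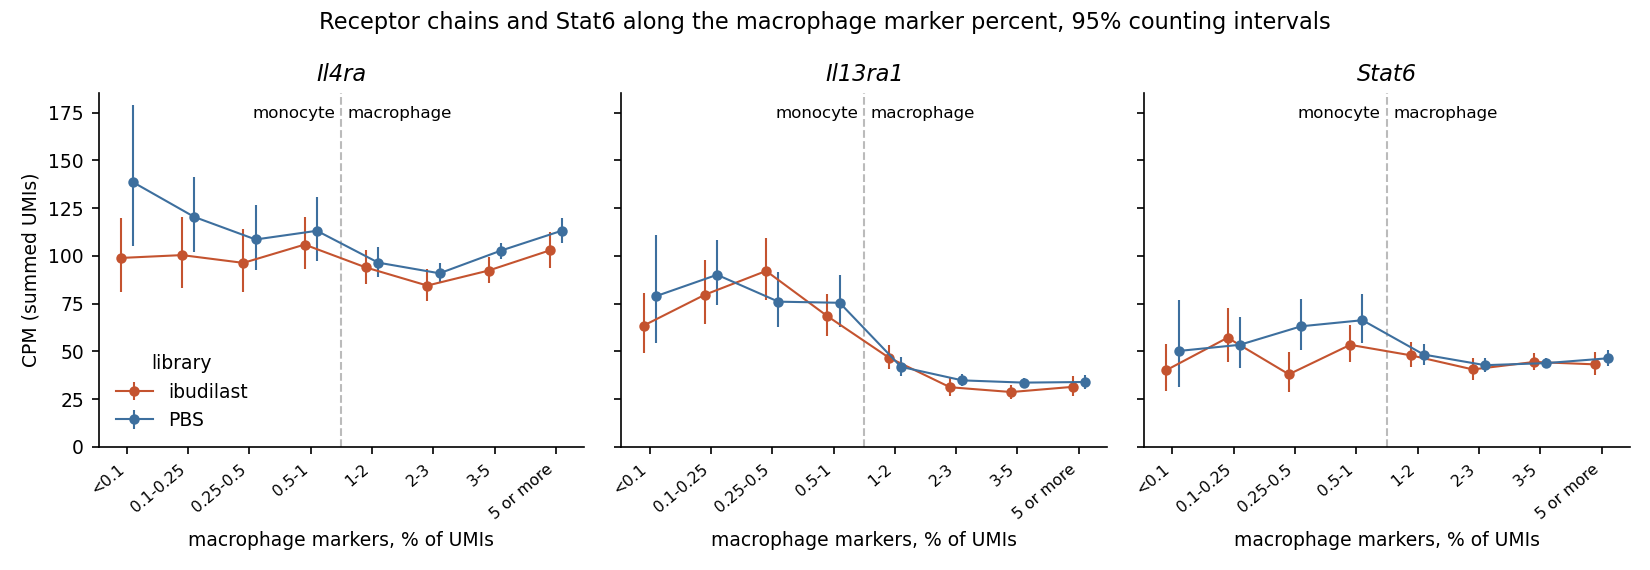
CPM of Il4ra, Il13ra1 and Stat6 along 8 steps of the percentage of UMIs on macrophage markers, with 95% Poisson intervals, for ibudilast and PBS. The 4 left steps are monocytes and the 4 right ones macrophages, and Il13ra1 lies at 63.4 CPM or more on the left and 46.7 CPM or less on the right.

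The other chains, kinases and brakes of the pathway were nearly level between the libraries. Of 13 listed genes, 12 were measured in macrophages (at least 20 UMIs), 1 had a ratio above the inverse of 0.8 and 1 had a ratio under 0.8, where 17.5% and 6.78% of all 12832 measured genes were above and under. Irs1, an adaptor of the IL-4 receptor, was the 1 above, with a ratio of 1.499 whose interval of 0.663 to 3.25 holds 1. Cish, which restrains STAT signalling, was the 1 under, with 18.0 CPM in the ibudilast library, 23.1 CPM in the PBS library and a ratio of 0.780 (95% interval 0.695 to 0.875). This direction turned by clusters, where the ratio of Cish was 1.248. The common chain Il2rg had 106 CPM in ibudilast and 103 CPM in PBS macrophages, and the kinase Jak1 had 87.5 CPM in ibudilast and 88.8 CPM in PBS macrophages.

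Monocytes and cDC2 gave similar counts for this list. In monocytes 1 of 11 measured genes was above and 1 under (16% and 12.4% of all measured genes were), and in cDC2 1 of 11 was above and 1 under (14.2% and 20% of all). Cish was the gene under in both, with ratios of 0.598 in monocytes and 0.685 in cDC2. In T cells none of 11 passed either limit (9.34% of all measured genes were above and 10.2% under). A further list held cofactors of STAT6 and transcription factors that are not its cofactors, such as Bcl6. In macrophages 3 of 9 were above the inverse of 0.8, where 17.5% of all measured genes were. They were Bcl6 (ratio 1.56), Klf4 (ratio 1.28) and Irf4 (3.05 CPM in ibudilast and 2.04 CPM in PBS cells). Of this list, 0 of 9 were above in monocytes, 1 of 8 in cDC2 and 2 of 9 in T cells, and none was under in these types.

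Genes that IL-4 is known to switch on were mostly lower in the ibudilast myeloid cells. Of 22 listed targets measured in macrophages, 13 were under 0.8 and 4 above its inverse, against the 6.78% and 17.5% of all genes given above. The median log2 ratio was −0.41, against 0.05 over all measured genes. In monocytes 14 of 22 were under and 3 above (median −0.55, all genes 0.01), and in cDC2 11 of 21 were under and 3 above (median −0.31, all genes −0.02). The list was chosen with earlier results of these data known, and several of its members were already known to be lower, so its counts are no independent evidence of a direction. Chil3, Clec10a and Ccl22 also served to assign cells, and without them 11 of 19, 12 of 19 and 9 of 18 were under in macrophages, monocytes and cDC2. The part of IL-4 in these differences was not tested.

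Mgl2 and Ccl17 were lower in all 3 of these types, which is why their promoter windows are shown. They are the 250 bases before the RefSeq starts on the plus strand (GRCm38.p6), chr11:70130107-70130356 for Mgl2 and chr8:94810203-94810452 for Ccl17. Here capitals mark the STAT6 letters only, not a GATA word.
Mgl2: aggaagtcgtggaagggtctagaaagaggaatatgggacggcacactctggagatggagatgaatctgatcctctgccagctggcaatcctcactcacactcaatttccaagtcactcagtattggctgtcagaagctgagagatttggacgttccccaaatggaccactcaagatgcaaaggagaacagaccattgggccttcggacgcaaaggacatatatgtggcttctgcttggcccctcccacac
Ccl17: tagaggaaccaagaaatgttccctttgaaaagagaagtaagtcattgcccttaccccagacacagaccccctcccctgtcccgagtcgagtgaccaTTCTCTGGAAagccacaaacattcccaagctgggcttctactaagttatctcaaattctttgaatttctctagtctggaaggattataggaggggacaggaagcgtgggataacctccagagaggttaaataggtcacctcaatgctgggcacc
The Ccl17 window held TTCTCTGGAA and, on the other strand, the GATA word AGATAA, and the Mgl2 window held neither the STAT6 letters nor a GATA word. Of the 21 targets with a window, 5 held the STAT6 letters (Retnla, Ccl17, Cd209e, Pdcd1lg2 and Tfec), against 5.85% of all windows.

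Mgl2, a lectin of macrophages and dendritic cells that binds galactose sugars, had 38.4 CPM in ibudilast macrophages and 140 CPM in PBS macrophages, a ratio of 0.274 (95% interval 0.255 to 0.294). It was found in 239 of 2326 ibudilast macrophages (10.3%) and 1397 of 3795 PBS macrophages (36.8%). In cDC2 it had 78.5 CPM in the ibudilast library against 208 CPM in the PBS library, and was found in 29 of 166 ibudilast and 100 of 226 PBS cells. The cDC2 ratio of 0.377 was 0.631 with thinned counts and 0.237 with cells assigned on thinned counts. Mgl2 was thus spread over many cells and lower in both types. T cells, which should lack Mgl2, had 4.95 CPM in the ibudilast and 14.1 CPM in the PBS library, and the 7.61 CPM of ibudilast monocytes came close to that background, against 45.3 CPM in PBS monocytes.

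Ccl17, a chemokine that attracts T cells through CCR4, was high in dendritic cells. Migratory dendritic cells had 239 CPM in the ibudilast library against 829 CPM in the PBS library. Ccl17 had 81.3 CPM in ibudilast cDC2 against 378 CPM in PBS cDC2, a ratio of 0.215 (95% interval 0.183 to 0.252). It was found in 27 of 166 ibudilast cells (16.3%) and 94 of 226 PBS cells (41.6%), and without the 3 highest cells of each library the ratio was 0.135. In macrophages the ratio was 0.252, and 0.499 by clusters, and in monocytes it was 0.318, and 0.579 with thinned counts. Ibudilast macrophages held only 67 Ccl17 UMIs, a level close to the 2.42 CPM of ibudilast T cells.

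Other targets rested on few cells. Arg1, which splits arginine, had 15.2 CPM in ibudilast and 27.4 CPM in PBS macrophages (ratio 0.553), in 69 ibudilast cells (2.97%) and 233 PBS cells (6.14%). The chemokine gene Ccl24 had 6.93 CPM in ibudilast and 21.8 CPM in PBS macrophages (ratio 0.318), in 23 ibudilast and 119 PBS cells, and 1 PBS cell alone held 213 UMIs. Without the 3 highest cells the ratio was 0.388 for Arg1 and 0.123 for Ccl24, so both stayed lower in the ibudilast library. In monocytes, 1 PBS cell held 193 Ccl24 UMIs and 1 held 110 Arg1 UMIs. The monocyte ratios of 0.0396 for Ccl24 and 0.0784 for Arg1 became 0.202 and 0.139 without the 3 highest cells. Ibudilast monocytes held only 14 Ccl24 and 21 Arg1 UMIs. These levels came close to those of ibudilast T cells, 1.79 CPM for Ccl24 and 3.47 CPM for Arg1.

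The mannose receptor gene Mrc1 had 12.8 CPM in ibudilast and 25.7 CPM in PBS macrophages, a ratio of 0.499, and was found in 6.45% of ibudilast and 15.9% of PBS cells. Egr2, a transcription factor that acts after STAT6 in mouse macrophages, had 16.9 CPM in ibudilast and 24.8 CPM in PBS macrophages, a ratio of 0.683 (95% interval 0.607 to 0.767). The scavenger receptor gene Cd36 (0.612), the growth factor gene Hbegf (0.631), Tfec (0.729) and Pdcd1lg2 (0.776), which encodes PD-L2, were lower as well. The ibudilast macrophages were the shallower ones, as given above, and shares of cells with a UMI move with depth.

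The listed targets did not all go one way. In macrophages Chil3, a chitinase-like protein, was higher, with 109 CPM in the ibudilast library against 49.5 CPM in the PBS library (ratio 2.20, 95% interval 2.08 to 2.33), and was found in 21.0% of ibudilast and 11.4% of PBS cells. In monocytes, its main carriers here and partly chosen by it, Chil3 was lower, with 1020 CPM in the ibudilast library against 2003 CPM in the PBS library. Macrophages also had more Il4i1 (1.55), Ccl8 (1.27) and Flt1 (1.26). Socs1, a brake on cytokine signalling, was 1.14 in macrophages, 1.16 in monocytes and 1.34 in cDC2. Retnla, a classic IL-4 target in mouse macrophages, had no UMI in ibudilast and 2 UMIs in PBS macrophages.

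**Figure D5:**
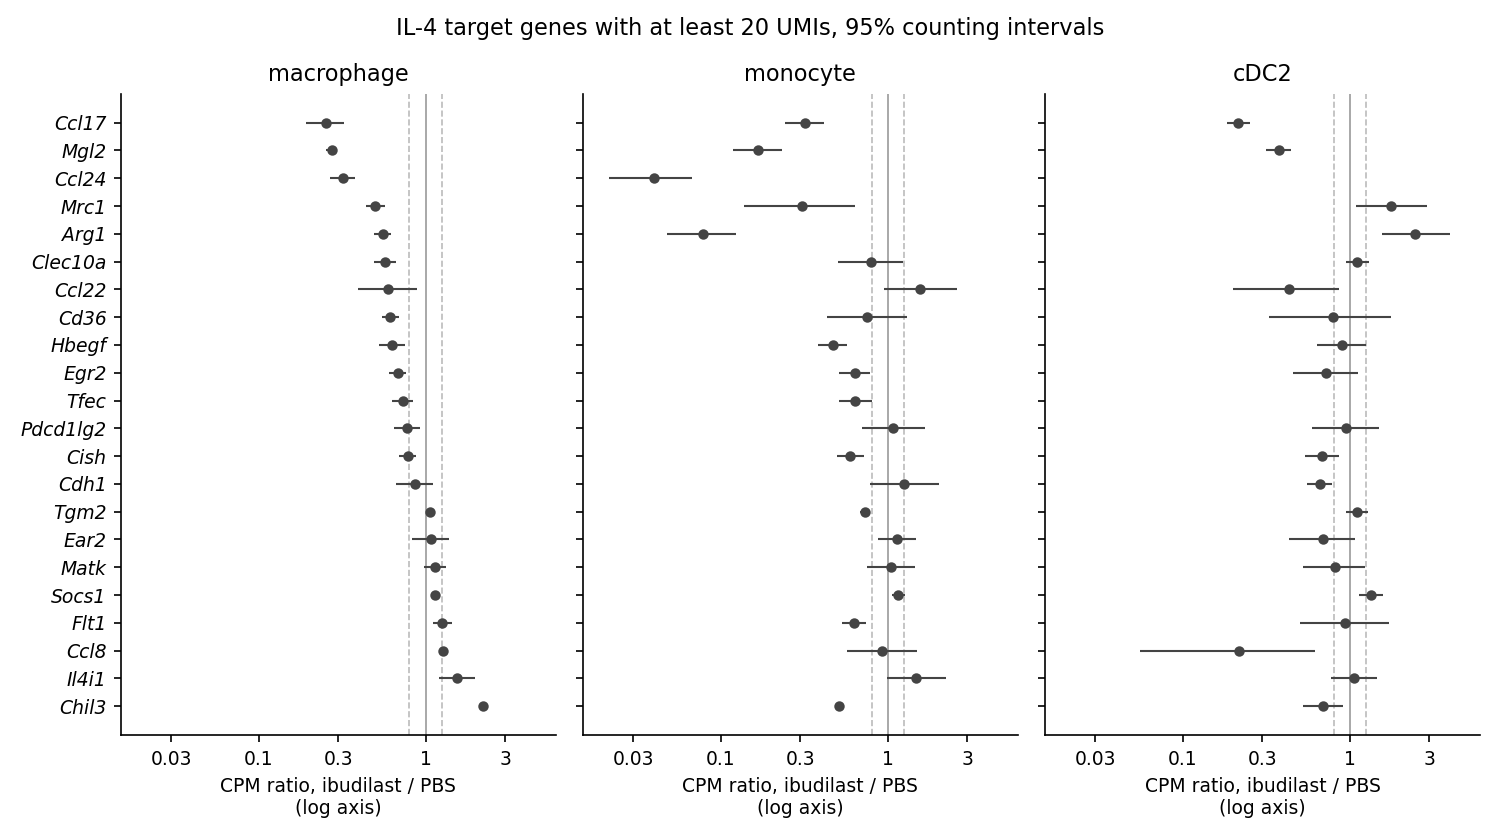
Ratio of ibudilast to PBS CPM, on a log axis, for listed IL-4 target genes with at least 20 UMIs in macrophages, in macrophages, monocytes and cDC2, with 95% intervals. Mgl2 and Ccl17 lie under 0.4 in all 3 types as assigned here (up to 0.631 for Mgl2 and 0.579 for Ccl17 under other settings), while Chil3 lies at 2.20 in macrophages and 0.509 in monocytes.

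Genes with profiles most like those of the 5 were ranked by Pearson's r of log2(CPM + 1) over 23 profiles, 1 per type and library with at least 50 cells, among 11632 genes. Basophils had too few cells to enter. For Il4 the nearest were Il1rl1 (0.944), the mast cell tryptase gene Tpsab1 (0.938), Cyp11a1 (0.937), Tpsg1 (0.930) and Tph1 (0.923), and for Il13 Tpsab1 (0.930) and Il1rl1 (0.919) led. The only mast cell profile among the 23 was that of the PBS library, with 75.7 CPM of Il4 against 2.35 CPM in the next, the PBS T cells. For Il4ra, Gngt2 (0.942) and Pirb (0.909), an inhibitory receptor of myeloid cells, came first. Il13ra1 was closest to Dhx58 (0.947), Ms4a4c (0.937) and Ifi204 (0.935), of which Dhx58 and Ifi204 are known to be induced by interferon, and Stat6 to Plcl2 (0.899) and Abi1 (0.893). Profiles of 1 library share depth and free RNA, so these values describe likeness only.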

How the data were processed

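The authors deposited raw counts of UMIs for each gene in each barcode of 10x 3′ libraries. Per the file headers they come from Cell Ranger 6.1.1, and per the submitters' processing notes the build was mm10. Cells with at least 500 UMIs, at least 300 genes and under 10% mitochondrial UMIs were kept. Scrublet (scanpy 1.11.5) marked no doublet by its own threshold, so the 6% of cells with the highest scores were left out of each library, 425 ibudilast and 489 PBS cells. Each cell was then assigned by UMIs of fixed markers: basophils at 3 or more (Mcpt8, Prss34, Cd200r3, Ms4a2, Cyp11a1), mast cells at 10 (Tpsb2, Tpsab1, Mcpt4, Cma1, Kit), T cells at 5 of receptor and CD3 genes, cDC2 at 5 and monocytes at 10. Macrophages needed 1% of UMIs on C1qa, C1qb, C1qc, Apoe and Ms4a7. In all, 794 ibudilast and 571 PBS cells were assigned to no type.

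Sums of UMIs per type and library were scaled to CPM. Intervals at 95% are exact Poisson for sums, Clopper-Pearson for shares and exact conditional binomial for ratios (scipy 1.17.1). These intervals leave out the spread between cells and are too narrow where few cells hold most UMIs. The limit that a count of 0 allows is 3 counts over the UMIs of the type. Lists were counted under a ratio of 0.8 or above its inverse, by the ratio alone, among genes with at least 20 UMIs in a type. The scripts were tested on simulated data. The members, gene lists and markers were chosen with earlier results of these data known. Named were the 5 genes, genes of the 4 pathway lists, the 5 genes of most like profile for each and assignment markers, and any other gene is said to have been chosen after its values were seen. Gene positions are GENCODE's on GRCm38. 1 listed target gene was not analysed here.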

Additional observations from a re-analysis of the deposited data

Results flagged for a closer look

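6 listed IL-4 targets had ratios of ibudilast to PBS on opposite sides of 1 in different cell types, each with an interval that left out 1. The differences between types were not tested, since each type had 1 library per group. Arg1 was 0.553 in macrophages and 0.0784 in monocytes but 2.47 in cDC2, where 46 of the 50 ibudilast UMIs lay in 1 cell. Without the highest cell of each library the cDC2 ratio was 0.334, and by clusters it was 0.928, so the opposite direction did not hold there. Mrc1 was likewise 0.499 in macrophages and 0.307 in monocytes but 1.77 in cDC2, where it was 0.969 by clusters and the opposite direction was lost as well. Chil3 was 2.20 in macrophages but 0.509 in monocytes and 0.691 in cDC2. In cDC2 the 3 highest cells held 63 of 77 ibudilast and 159 of 176 PBS Chil3 UMIs. Without them the cDC2 ratio of Chil3 was 1.31, so its direction in cDC2 rested on those cells. Ccl8, a chemokine gene, was 1.27 in macrophages and 0.218 in cDC2. The cDC2 value rested on 4 UMIs in 4 ibudilast cells and 29 UMIs in 14 PBS cells. Flt1, a receptor gene for vascular growth factors, was 1.26 in macrophages and 0.631 in monocytes. Tgm2, which encodes a transglutaminase, was 1.05 in macrophages and 0.726 in monocytes.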

How the results depend on the processing

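Of 131 recomputed values of the 21 main results, 109 stayed within the counting interval or within 1.5 times a count, 18 moved and 4 turned round, and of 355 values of 32 results on single genes 287 stayed, 64 moved and 4 turned round. A turn was counted only for results whose main interval left out 1. Other changes of side were counted as stayed or moved, as for Stat6 in migratory dendritic cells (0.817, up to 1.55). Causes were not tested unless the setting itself gives one. Il4 over all kept cells (ratio 0.429) was 0.128 with thinned counts, 0.160 with each cell weighted alike and 1.44 without basophils. Il13 over all kept cells (1.96) was 0.486 with each cell weighted alike and 0.802 without the 3 highest cells. Thinned Il13 and thinned mast cell Il4 had too few UMIs for a value. In macrophages Il4ra (0.921) was 0.861 by clusters and 0.999 thinned, Il13ra1 (0.958) 0.821 by clusters, and Stat6 (0.987) 0.813 thinned. The thinned ratios of macrophage shares were 1.002 for Il4ra, 0.931 for Il13ra1 and 0.821 for Stat6, against 0.769, 0.684 and 0.741 unthinned. Lower targets in cDC2 (11) numbered 6 with a minimum of 100 UMIs, 6 past 1.5-fold and 5 thinned. Of the 5 most like genes, a minimum of 20 UMIs kept 3 for Il4 and 1 for Il13, and Spearman's rho kept 0 for Il4, 0 for Il13, 1 for Il4ra, 3 for Il13ra1 and 1 for Stat6. Cish in macrophages was 1.248 by clusters. In cDC2, Arg1 was 0.928 and Mrc1 0.969 by clusters, and Arg1 was 0.334 without the highest cell of each library. Clusters, gates on thinned cells and doublets kept were rerun as planned. No paired analysis was possible because each group held 1 library. The basophil comparison rests on 1 ibudilast cell and Il13 on 25 ibudilast UMIs.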

Other observations

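Among genes of type 2 cytokines and their inducers, 4 of 5 measured in macrophages were above the inverse of 0.8, where 17.5% of all measured genes were. Of these 4, all but Crlf2 were at very low levels. Maf, which was not above, had 128 CPM in ibudilast and 114 CPM in PBS macrophages. In T cells 0 of 5 were above and 2 under, where 9.34% and 10.2% of all measured genes were. In monocytes 0 of 2 passed either limit (16% of all were above and 12.4% under), and in cDC2 1 of 2 was above (14.2% of all). Crlf2, a chain of the receptor for TSLP, had 230 CPM in ibudilast and 177 CPM in PBS macrophages (ratio 1.30, 95% interval 1.252 to 1.342). Gata3 had 1.59 CPM in ibudilast and 0.518 CPM in PBS macrophages, against 54.1 CPM in ibudilast and 54.0 CPM in PBS T cells. Il33, the gene for the alarmin IL-33, which acts on basophils and mast cells through Il1rl1, had 545 UMIs in 72 ibudilast cells and 250 UMIs in 30 PBS cells over all kept cells. Only 21 of these ibudilast UMIs and 10 of these PBS UMIs lay in macrophages.

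In the PBS basophils, Areg, the gene for the growth factor amphiregulin, was found in 2 of 23 cells with 64 UMIs, of which 55 lay in the cell with 41 Il4 UMIs. Areg was chosen after its values were seen. Il17rb, a receptor chain for IL-25, was found in 4 of 23 PBS basophils, and Il2rg, the common γ chain, in 8 of 23.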
